A study of Homo sapiens with 2 samples.

Results

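SRSF2 and the genes that lie against it on chromosome 17q25, MFSD11 and METTL23, were followed in RKO cells in which SRSF2 was knocked down. SRSF2 was taken as the targeted gene, and MFSD11 and METTL23 as the genes that overlap it or share its surroundings, which made 3 of the 54261 genes counted. RKO is an established human colorectal cancer cell line. The control culture received a nontargeting siRNA duplex (si-NC) and the other a duplex directed at SRSF2 (si-SRSF2), both by transfection, and RNA was prepared 2 days later. Strand-specific poly(A) RNA libraries were sequenced, 1 library per group, so no difference below has a replicate check. The experiment used 1 siRNA in 1 cell line.

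SRSF2 is a serine- and arginine-rich (SR) protein that binds exonic splicing enhancers and helps the splicing machinery to recognise exons. Its protein also acts on its own transcripts, promoting splicing in the tail of the message that exposes the RNA to nonsense-mediated decay. MFSD11 is a transporter-like membrane protein of the major facilitator superfamily, and METTL23 is a methyltransferase that can modify arginine in histone H3.

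The 3 genes are closely packed and alternate in strand. In the GENCODE release 44 annotation of GRCh38, SRSF2 (ENSG00000161547.17) lies at chr17:76734115-76737333 on the minus strand. MFSD11 (ENSG00000092931.12) runs the other way, on the plus strand at chr17:76735865-76781449. The start of its canonical transcript is 788 bp from the start of the canonical SRSF2 transcript, so the pair stands head to head. METTL23 (ENSG00000181038.14), also on the plus strand, lies at chr17:76726830-76733936, and its canonical transcript ends 235 bp from the end of SRSF2, tail to tail. METTL23 in turn stands head to head with JMJD6, a jumonji-domain hydroxylase, with 233 bp between their canonical starts.

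**Figure D1:**
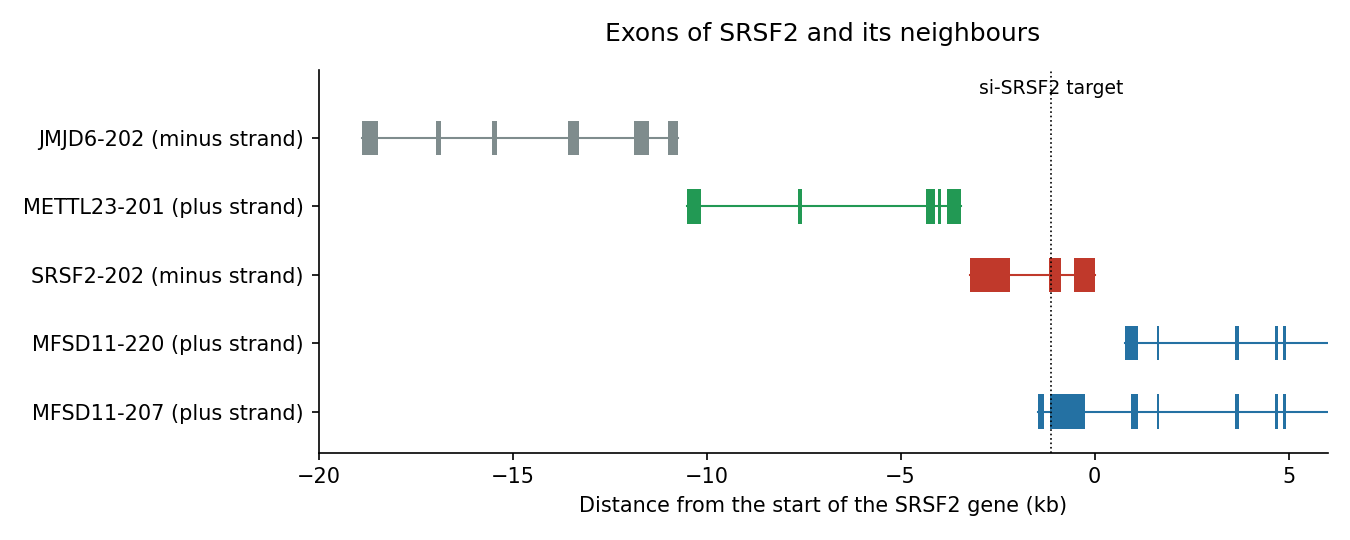
Exons (boxes) and introns (lines) of the canonical transcripts of JMJD6, METTL23, SRSF2 and MFSD11 and of the transcript MFSD11-207, by distance in kb from the start of the SRSF2 gene. The dotted line marks the si-SRSF2 target, which falls in an SRSF2 exon and in an exon of MFSD11-207; MFSD11 goes on past the right edge.

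The overlap was between SRSF2 and MFSD11. Of 20 annotated MFSD11 transcripts, 3 start inside SRSF2, and MFSD11-207 reaches furthest into it, with 823 exonic bases that are exonic in SRSF2 on the other strand. These bases make 27.7% of the 2976 exonic bases of SRSF2 and 12.97% of the 6347 of MFSD11. The canonical transcript of MFSD11 shares 0 exonic bases with SRSF2. METTL23 has 0 exonic bases in common with a gene on the other strand, and shares 12.4% of its 1914 exonic bases with a gene on its own strand, which was not analysed here. Sequence was shared on the same strand too. Of the stretches of 31 bases in each canonical transcript, 314 of 2543 (12.3%) in MFSD11 also occur in transcripts of 1188 other genes, and 208 of 1098 (18.9%) in METTL23 occur in the overlapping gene on its strand. Reads from these stretches may be assigned elsewhere or dropped, so the counts of MFSD11 and METTL23 are uncertain here as well. The strand setting of the read counting was not given in the sources used here. The counts of SRSF2 and MFSD11 are therefore uncertain in their overlap. Per kb of exonic bases, the SRSF2 level in si-NC was 18.6 times that of MFSD11. For MFSD11 the uncertainty may thus exceed the 12.97% share of its bases, and the part of its count from SRSF2 reads was not tested.

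The siRNA is shown because it sets where the knockdown acts. The listed strand of each duplex is given with its complementary strand, the guide for a target in the sense of the listed strand. Capitals mark bases 2 to 8 of the guide, the seed.
si-SRSF2 listed strand: uccaaauccaggucgcgautt
si-SRSF2 complementary strand: aUCGCGACcuggauuugga
si-NC listed strand: uucuucgaacgugucacgutt
si-NC complementary strand: aCGUGACAcguucgaagaa

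The si-SRSF2 target lies at chr17:76736211-76736229 of GRCh38, on the minus strand, in the coding part of exon 2 of the canonical SRSF2 transcript. It is shown on the SRSF2 strand with 20 bases on each side, and capitals mark the 19 target bases.
SRSF2 target: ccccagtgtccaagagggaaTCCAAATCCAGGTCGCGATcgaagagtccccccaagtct

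The site was present in 7 of 11 annotated SRSF2 transcripts. With 0 mismatches it was found in the transcripts of no other gene on the sense strand. Its complement was found in 1 of 20 MFSD11 transcripts, MFSD11-207, from position 186 in a noncoding stretch of exon 2, and in 0 of 15 METTL23 transcripts. For si-NC, no annotated gene had a site with fewer than 3 mismatches on either strand. The next closest sites for si-SRSF2 were in copies of the related gene SRSF8. In SRSF8 itself the closest site starts at position 1089 and differs at 2 bases, A6G and C9A, with the siRNA base first and positions counted from the 5′ end of the listed strand. Capitals mark these bases in the SRSF8 site.
SRSF8 site: tccaaGtcAaggtcgcgat

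The si-NC library held 19931360 counts and the si-SRSF2 library 14512802. SRSF2 was the knockdown target and its counts check the labels. SRSF2 had 1964 counts with si-NC (95% exact Poisson interval 1878 to 2053) and 713 with si-SRSF2 (662 to 767). After scaling to library size these were 98.5 and 49.1 counts per 1000000 (CPM). The CPM left was 49.9% of the control value (95% Clopper-Pearson interval 45.7 to 54.3%), so the library labelled si-SRSF2 held the lower SRSF2 level. The intervals here and below reflect counting error alone and do not include differences between transfected cultures. RNA came from whole cultures, so a loss in all cells and a larger loss in some cells cannot be told apart.

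Ratios between the libraries were taken as log2 of the si-SRSF2 value over the si-NC value, with 0.5 CPM added to each, for the 12620 genes whose mean reached 1 CPM. All 3 members passed this minimum. The intervals of these ratios, here and below, were taken without the added 0.5 CPM. At low counts the added value draws the ratio towards 0, while the interval is not drawn in. SRSF2 had a log2 ratio of -0.997 (95% interval -1.13 to -0.88). Of the 4473 other genes with a mean CPM within 2-fold of that of SRSF2, 2 had a lower ratio: ABHD14B at -1.03 and HBEGF, a growth factor of the epidermal growth factor family, at -1.27, both named after their values were seen.

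MFSD11 had 225 counts in si-NC (95% exact Poisson interval 197 to 256) and 119 in si-SRSF2 (98.6 to 142), or 11.3 and 8.20 CPM. Its level in si-SRSF2 was 72.6% of that in si-NC, with bounds of 57.7 and 91.1%. The log2 ratio was -0.44 (95% interval -0.79 to -0.13), so the counting interval lay below 0 and its lower end reached past a 1.5-fold fall. Among 2541 other genes of like abundance, 267 (10.5%) had a lower ratio. Reads from the overlap with SRSF2 may be part of the MFSD11 counts, and their effect on this ratio was not tested.

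METTL23 had 293 counts in si-NC (95% exact Poisson interval 260 to 329) and 208 in si-SRSF2 (181 to 238), or 14.7 and 14.3 CPM. Its log2 ratio was -0.04 with an interval of -0.30 to 0.22, so no difference was detectable at this depth. In the ranking of genes of like abundance METTL23 stood near the middle, with 1585 of 3212 genes (49.3%) lower.

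A gene was counted as lower or higher when its ratio passed 1.5-fold. By this rule 1 of the 3 members was lower, SRSF2, beside 444 (3.52%) of all 12620 genes tested. None of the 3 was higher, beside 527 (4.18%) of all genes. SRSF2 was chosen as the target of the siRNA, so its place among the lower genes is a check of the knockdown and no finding. Within the ranking of all genes tested, 63 had a ratio below that of SRSF2, 901 a ratio below that of MFSD11 and 6093 a ratio below that of METTL23.

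**Figure D2:**
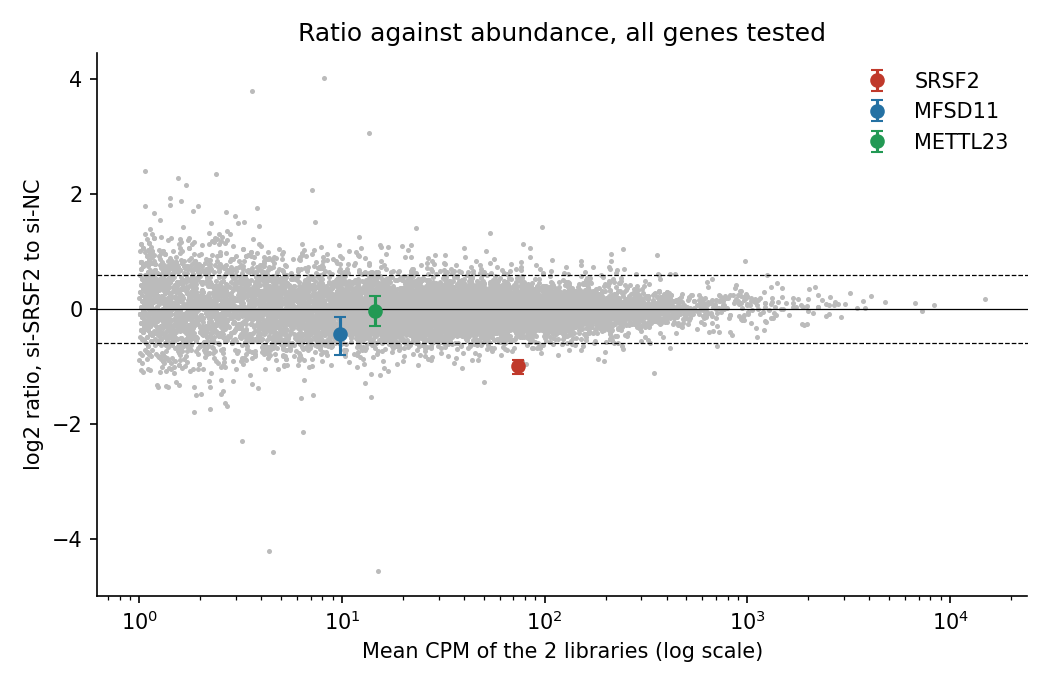
The log2 ratio of the si-SRSF2 over the si-NC value (vertical axis) against the mean CPM of both libraries (horizontal log axis) for the 12620 genes tested, with SRSF2, MFSD11 and METTL23 in colour and their 95% counting intervals; dashed lines mark 1.5-fold. SRSF2 lies at -0.997, below nearly all genes of its abundance, while MFSD11 lies at -0.44 and METTL23 at -0.04, inside the cloud.

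The ratio of one gene to another within a library does not depend on scaling between libraries. Per kb of exonic bases, the SRSF2 level was 18.6 times that of MFSD11 in si-NC and 12.8 times in si-SRSF2, a log2 change of -0.54 (95% counting interval -0.89 to -0.20). Against METTL23, the SRSF2 level per kb was 4.31 times as high in si-NC and 2.20 times in si-SRSF2, a log2 change of -0.97 (-1.25 to -0.68). SRSF2 was thus lower relative to each neighbour. The MFSD11 level per kb was 0.232 times that of METTL23 in si-NC and 0.173 times in si-SRSF2, a log2 change of -0.42 with an interval of -0.84 to -0.01, whose upper end nearly reached 0. Against JMJD6, the log2 change of MFSD11 was -0.26, and its interval of -0.60 to 0.08 included 0. The log2 changes do not depend on gene length, but the multiples do. Ratios with MFSD11 also carry the uncertainty of its overlap with SRSF2 described above. Over canonical transcript lengths, a setting added after the data were seen, the SRSF2 level per kb was 11.9 times that of MFSD11 in si-NC and 8.17 times in si-SRSF2.

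Levels could be compared between the members only per length. SRSF2 had 33.1 CPM per kb of exonic bases in si-NC (95% exact Poisson interval 31.7 to 34.6) and 16.5 in si-SRSF2 (15.3 to 17.8). METTL23 had 7.68 CPM per kb in si-NC (6.83 to 8.61) and 7.49 in si-SRSF2 (6.50 to 8.58). MFSD11 was lowest, with 1.78 CPM per kb in si-NC (1.55 to 2.03) and 1.29 in si-SRSF2 (1.07 to 1.55). The order SRSF2, METTL23, MFSD11 was therefore the same in both libraries, and no intervals of different members overlapped. The levels themselves moved by over 1.5 times with canonical transcript lengths, in si-NC to 52.2 CPM per kb for SRSF2, 13.03 for METTL23 and 4.39 for MFSD11, in the same order. Of the 11863 tested genes with an annotated length, 90.2% had a lower level per kb than SRSF2 in si-NC and 77.1% in si-SRSF2. For METTL23 these shares were 53.3% and 52.8%, and for MFSD11 17.7% and 13.7%.

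**Figure D3:**
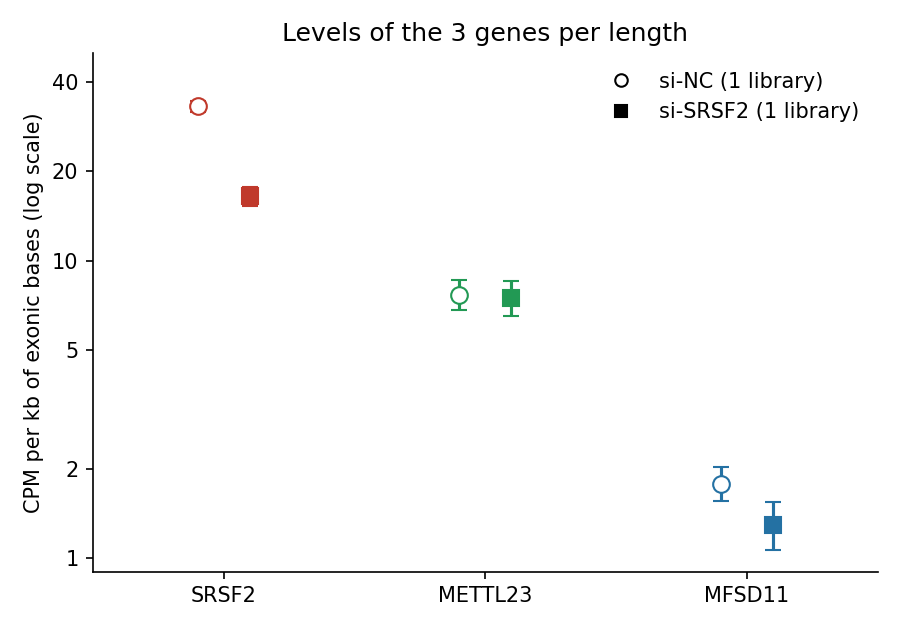
CPM per kb of exonic bases (log axis) of SRSF2, METTL23 and MFSD11 in the si-NC library (open circles) and the si-SRSF2 library (filled squares), with 95% exact Poisson intervals. SRSF2 went from 33.1 to 16.5, METTL23 from 7.68 to 7.49 and MFSD11 from 1.78 to 1.29.

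The members were then set beside other gene pairs of the same arrangement. Among tested protein-coding genes, 695 pairs stood head to head with canonical starts within 1 kb, and their ratios differed by a median of 0.23 on the log2 scale. SRSF2 and MFSD11 differed by 0.56. As SRSF2 was the siRNA target, this difference contains the knockdown and is no finding about the arrangement. JMJD6 and METTL23 differed by 0.16, and 438 pairs (63.0%) differed by more. In 38 head-to-head pairs, SRSF2 and MFSD11 among them, at least 1 gene was 1.5-fold lower; the other gene of these pairs had a median ratio of 0.01, was below 0 in 17 pairs and was 1.5-fold lower in 0 and higher in 1. Of all genes tested, 53.8% were below 0, 3.52% were 1.5-fold lower and 4.18% higher. METTL23 and SRSF2, the tail-to-tail pair, differed by 0.96, which likewise contains the knockdown; the median over 302 tail-to-tail pairs was 0.23.

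Other genes near the locus were examined next. Of 62 annotated genes with any base within 500 kb of SRSF2, MFSD11 and METTL23 included, 40 were in the count table and 15 passed the minimum of 1 CPM. None of the 15 was at least 1.5-fold lower, beside 3.52% of all genes, and 2 were at least 1.5-fold higher, beside 4.18%. The higher count was 1 with 2 CPM added or with a minimum of 5 CPM, 0 within 200 kb and 3 without a filter on low counts. Their median log2 ratio was 0.03 and that of all genes tested -0.02; the median turned to -0.0036 with a minimum of 5 CPM and to -0.05 within 200 kb. MFSD11 had the lowest ratio of the 15.

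JMJD6, the head-to-head partner of METTL23, had 1454 counts with si-NC and 922 with si-SRSF2, with a log2 ratio of -0.20 (95% interval -0.32 to -0.08). MXRA7, the next gene beyond JMJD6, had a ratio of -0.07 (-0.19 to 0.05). Farther out on the same side, SPHK1, a sphingosine kinase, had a ratio of -0.25 (-0.34 to -0.16) and PRPSAP1 -0.09. SNHG16, a host gene of small nucleolar RNAs, had a ratio of 0.23 and RHBDF2, a rhomboid-like regulator of protein shedding, 0.34. UBE2O, UBALD2 and QRICH2 had ratios of 0.03, 0.10 and 0.37. RNF157, an E3 ubiquitin ligase near the outer edge, was higher, with 125 counts with si-NC and 172 with si-SRSF2 and a ratio of 0.87 (0.58 to 1.26). On the MFSD11 side, MGAT5B had a ratio of 0.13, SEC14L1 0.03 and SNHG20, with 35 and 47 counts, 0.73 (0.22 to 1.56). The small RNA gene MIR636, which lies within SRSF2 on the same strand, had 1 count in each library, so no comparison was possible.

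**Figure D4:**
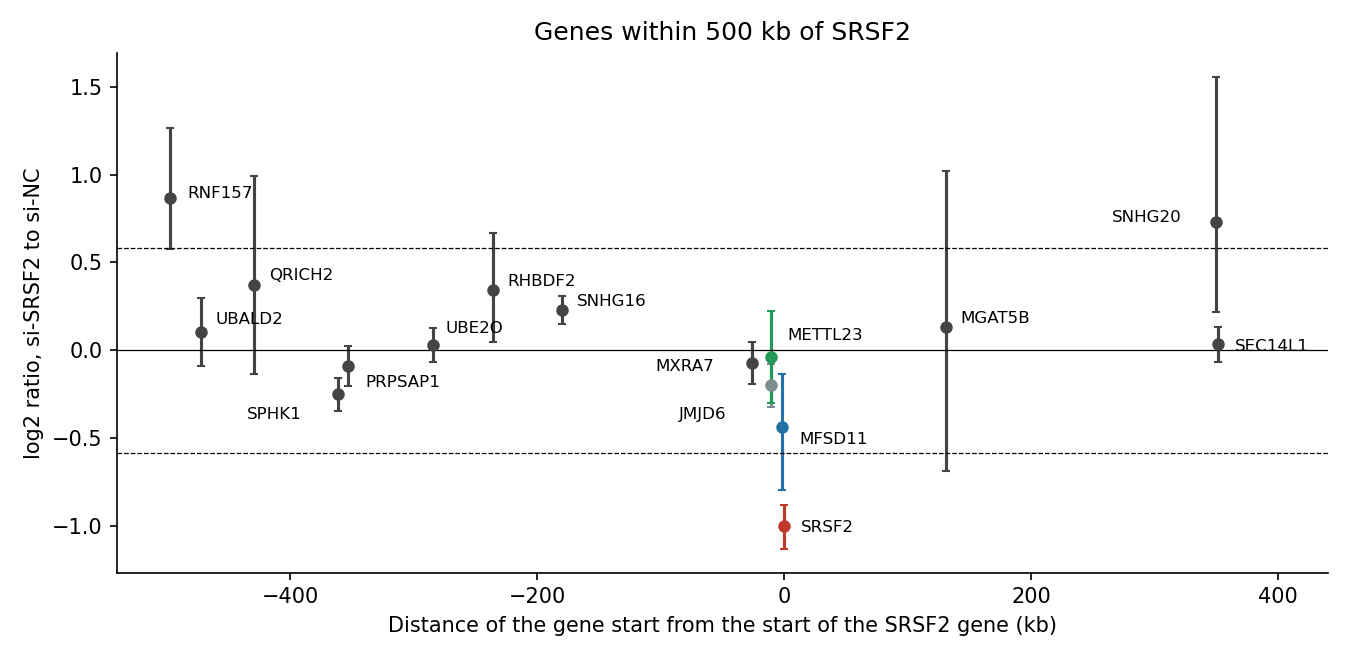
The log2 ratio of the si-SRSF2 over the si-NC value (vertical axis, 95% counting intervals) of SRSF2 and the 15 tested genes within 500 kb of it, by distance in kb of each gene's start from the start of SRSF2; dashed lines mark 1.5-fold. SRSF2 at -0.997 is the lowest point and MFSD11 at -0.44 the next, with RNF157 at 0.87 and SNHG20 at 0.73 above the upper line.

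The relatives of each member were summarised as lists. Of 11 other SR protein genes, 10 were tested, with 0 lower and 1 higher, beside 3.52% and 4.18% of all genes. The median log2 ratio was 0.01, and without the filter on low counts it was -0.04, so it has no stable direction. The higher gene was SRSF8, a paralogue of SRSF2, with 274 counts with si-NC and 439 with si-SRSF2 and a ratio of 1.11 (95% interval 0.92 to 1.36). Its value went in the opposite direction to that of SRSF2. SRSF8 holds the site with 2 mismatches shown above. On the same strand, 22 of the 1858 stretches of 31 bases in the canonical SRSF2 transcript (1.18%) also occur in SRSF8 or its copies, so reads from these stretches could be assigned to either gene.

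Among 19 MFSD11 relatives of the major facilitator superfamily and the UNC93 family, 16 were tested. By the 1.5-fold rule 0 were lower and 0 higher, beside 3.52% and 4.18% of all genes, a count near the background for a list of this size. Of the 16, 12 (75%) had a ratio below 0, beside 53.8% of all genes tested. The median ratio of these relatives was -0.10, beside -0.02 for all genes tested, with MFSD1 lowest at -0.58 and MFSD2B highest at 0.19. MFSD11, at -0.44, lay within this range. The METTL23 relatives joined its methyltransferase family with other METTL genes, which need not be of that family and were not summarised apart. Of these 29 genes, 26 were tested. Beside the same shares of all genes, 1 was lower, METTL7B at -1.14 (95% interval -1.49 to -0.89), and 1 was higher, ETFBKMT at 0.75 (0.17 to 1.85), a mitochondrial methyltransferase that rested on 22 and 32 counts. Their median was 0.03, and METTL23 at -0.04 lay near it.

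Genes that act on the SRSF2 protein or its transcripts, such as the SR protein kinases, the import factor TNPO3 and the factors of nonsense-mediated decay, numbered 25, of which 24 were tested. None of the 24 was 1.5-fold lower or higher, beside 3.52% and 4.18% of all genes, so the count is near the background, and the median ratio was 0.01. The gene below the minimum, CLK2, with a mean of 0.868 CPM, had 25 and 7 counts and a ratio of -0.84 (95% interval -2.83 to -0.13); it is named after its values were seen. Among the 24 tested, the lowest was CLK3, a kinase of SR proteins, at -0.41 (-0.53 to -0.29), and the highest was SF1, which binds the branch point, at 0.31 (0.23 to 0.39).

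**Figure D5:**
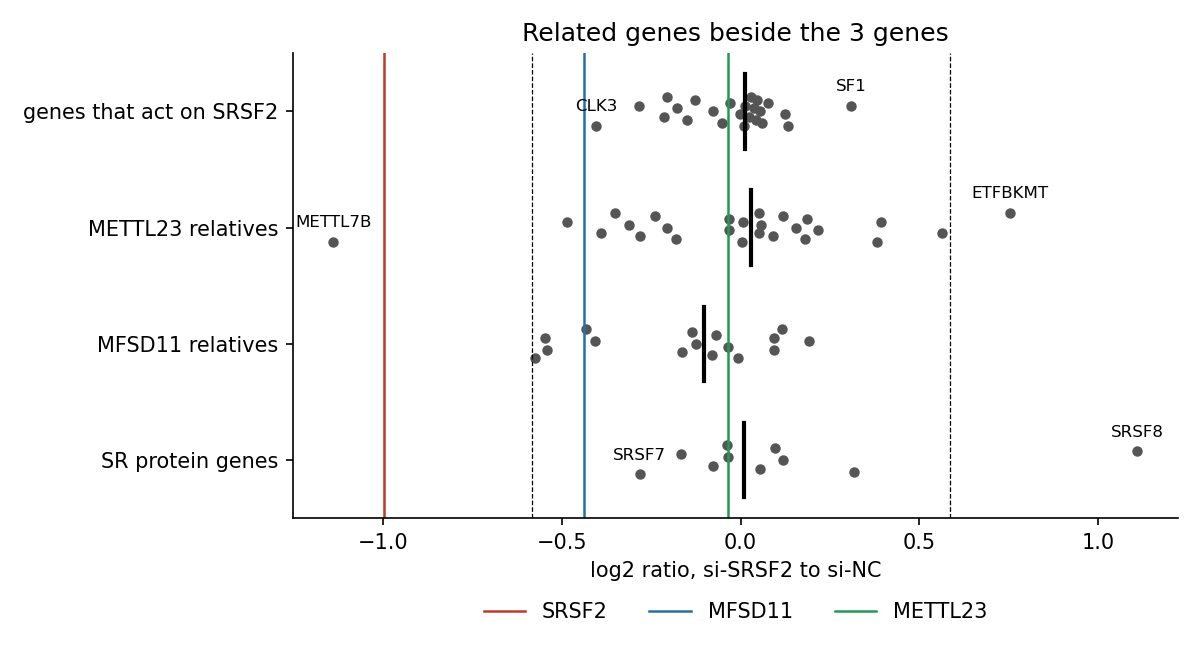
The log2 ratio of the si-SRSF2 over the si-NC value (horizontal axis) of the tested genes of 4 lists, 1 point per gene, with the list median as a black bar; coloured lines mark SRSF2, MFSD11 and METTL23 and dashed lines 1.5-fold. The medians lie at 0.01, 0.03, -0.10 and 0.01 from the top list to the bottom list, while SRSF2 lies at -0.997.

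Genes with a near match to si-SRSF2 on the sense strand were named for their sequence, outside the rule for the other genes. The SRSF8 copies SRSF8BP and SRSF8CP, with 1 mismatch, and 9 genes with 3 mismatches on the antisense strand were not analysed here. PDLIM2, with 2 mismatches, had a log2 ratio of -0.06 (95% interval -0.19 to 0.07). With 3 mismatches, GPLD1 had a ratio of -0.53 (-0.94 to -0.20), MED16 -0.53 (-0.73 to -0.35) and SFSWAP -0.52 (-0.68 to -0.38), and these intervals lay below 0 and reached past 1.5-fold. The ratios of GPLD1, MED16 and SFSWAP were below that of MFSD11 (-0.44), as were those of 7.14% of all genes tested. TRA2A, also with 3 mismatches, had a ratio of 0.11 (0.00 to 0.22) and TRA2B -0.04 (-0.13 to 0.04). With SRSF8, described above, 0 of these 7 genes with a sense match of 2 or 3 mismatches were 1.5-fold lower and 1, SRSF8, was higher, beside 3.52% and 4.18% of all genes.

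For each member the 5 protein-coding genes nearest to it in log2 CPM over both libraries were found among 10906 candidates, a likeness that rests on 2 values per gene. SRSF2 had TMEM64, UBE2S, SLC39A8, RHOT1 and WDHD1, at distances of 0.13 to 0.29. MFSD11 had EML5, GJA3, ESAM, DDX58 and SRGAP2B, at distances of 0.01 to 0.04. METTL23 had SLC39A4, DGCR14, NXT2, ARHGEF3 and TBKBP1, at distances of 0.01 to 0.02. SRSF2 had the more distant neighbours, but its values contain the knockdown, so this is no finding.

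Promoter windows of 300 bases from RefSeq (GRCh38.p14) were matched for MFSD11, at chr17:76737869-76738168, and METTL23, at chr17:76725791-76726090, on the plus strand. SRSF2 and JMJD6 had no entry. The MFSD11 window held 33 CpG sites, more than 82.8% of 35116 promoters, and was 69.3% G and C, against medians of 14 and 58.7%. The MFSD11 window holds the start of the canonical transcript. The METTL23 window instead ends 749 bp before the canonical METTL23 start and lies within JMJD6, with 65 of its bases in JMJD6 exons, so it describes the RefSeq start and not the canonical GENCODE start. The METTL23 window held 12 CpG sites and was 54.7% G and C. Each window held 1 copy of GGGCGG or its complement CCGCCC, which 45.0% of promoters held. Neither held CCAAT (34.6% of promoters) or TATAAA (11.5%), searched on both strands. These matches describe the windows and identify no binding site.

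Marker genes were compared with the label of the cells. Of 5 epithelial markers, EPCAM, KRT8 and KRT18 had at least 1 CPM on average, while KRT19 had 1 count in each library and CDH1 10 with si-NC and 6 with si-SRSF2. KRT8, a keratin, had 547 counts with si-NC and 618 with si-SRSF2, with a log2 ratio of 0.62 (95% interval 0.47 to 0.80). EPCAM had a ratio of 0.16 (-0.15 to 0.50) and KRT18 0.05 (-0.12 to 0.23), so for these no difference was detectable. The intestinal factor CDX2 had 212 counts with si-NC and 158 with si-SRSF2, or 10.6 and 10.9 CPM. Its log2 ratio was 0.03 (95% interval -0.27 to 0.34), so no difference was detectable. VIL1 had 1 count in each library and KRT20, MUC2 and LGR5 had 0. PECAM1 and HBB, of endothelial and erythroid cells, had 0 counts, PTPRC, of leukocytes, had 2 and 0, and COL1A1, of fibroblasts, had 13 in each.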

How the data were processed

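Poly(A) RNA of RKO cells was prepared as strand-specific libraries and sequenced as read pairs, 1 si-NC and 1 si-SRSF2 library. The authors aligned reads to GRCh38 with HISAT2 (version 2.0.4 in the submitters' processing notes) and counted reads per gene with HTSeq; the deposited values are raw counts. The strand setting of the counting was not given in the sources used here. The methods name an Ensembl annotation, whereas 16146 of the 54261 gene symbols begin with LOC, as NCBI writes them.

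Library sizes were scaled by the TMM method of edgeR 4.0.16 under R 4.3.3. For log2 ratios, 0.5 CPM was added to each value, and genes averaging under 1 CPM were left out. Intervals of 95% (Clopper-Pearson for ratios of a gene between libraries, exact Poisson for counts, both with SciPy 1.17.1) cover counting error only. Those of log2 ratios were taken without the added 0.5 CPM. For changes in the ratio of one gene to another within a library, the interval was a normal approximation on the log2 scale, also for counting error only. The limit of 3 counts corresponded to 0.151 CPM in si-NC and 0.207 in si-SRSF2. Genes were not tested for significance, as each group had 1 library; a gene was counted as changed past 1.5-fold. Gene positions, exons and canonical transcripts were from GENCODE 44, with RefSeq genes added within 500 kb of SRSF2; table symbols were matched by current or older symbols, which gave an exonic length for 11863 of 12620 tested genes. siRNA sites were searched without gaps in all GENCODE transcripts on both strands. The calculations were tested on simulated data.

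The members and gene lists were chosen with earlier results of these data known. The genes named are the members, the tested genes within 500 kb, MIR636, the members of each list past 1.5-fold or otherwise its lowest and highest, SRSF8, and the 5 protein-coding genes nearest to each member; others are named as exceptions in the text. A marker gene that was also examined is not reported here. Alternatives tried were scaling by total counts, by upper quartiles or by DESeq2 1.42.0, adding 0.1 or 2 CPM instead, keeping all genes with a count or those with a mean of 5 CPM, a window of 200 kb and other gene lengths.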

Additional observations from a re-analysis of the deposited data

How the results depend on the processing

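The log2 ratios of SRSF2 (-1.003 to -0.973), MFSD11 (-0.46 to -0.38) and METTL23 (-0.04 to -0.01) stayed within their counting intervals under the 3 other scalings and both pseudocounts, and so did the differences between SRSF2 and its neighbours under both pseudocounts. List medians have no counting interval of their own. Over the alternatives run, the median ran from 0.01 to 0.05 for the METTL23 relatives, from -0.13 to -0.08 for the MFSD11 relatives and from 0.01 to 0.04 for the genes that act on SRSF2. It ran from -0.04 to 0.03 for the SR protein genes and from -0.05 to 0.06 for the genes near SRSF2, so neither of these has a stable direction.

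Counts past 1.5-fold moved with the filter and the pseudocount. With 2 CPM added, 220 genes were lower and 254 higher, and 1 gene near SRSF2 was higher. Without a filter on low counts, 837 genes were lower and 1262 higher, and near SRSF2 1 gene was lower and 3 were higher. With a minimum of 5 CPM, 237 were lower and 202 higher, and 1 gene near SRSF2 was higher, since fewer genes were tested. In the 200 kb window 0 genes were higher.

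Levels per kb depended on the length used. Over exonic bases of each gene alone, SRSF2 had 45.8 CPM per kb in si-NC and 22.8 in si-SRSF2, MFSD11 2.14 and 1.55, and METTL23 8.77 in si-NC. Over the canonical transcript, SRSF2 had 52.2 and 26.0, MFSD11 4.39 and 3.19, and METTL23 13.03 and 12.7. The order of the 3 genes was the same with each length in both libraries.

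No paired analysis was possible because there was 1 library in each group, and no replicate was left out. Among the 3 members, depth limits MFSD11 and METTL23 more than SRSF2, with 119 and 208 counts in the si-SRSF2 library; several other genes named have fewer counts.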
